A study of Rattus norvegicus with 12 samples.

Results

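The genes described here encode the proteins that copy DNA and divide the chromosomes and the cell. The set of 44 was chosen by name for these roles, with earlier results of these data known. Counts over the set therefore describe it and are no test of it. Of these, 40 had a probe set of their own on the array and were measured, among 14506 named genes in all. Mki67, Cenpe, Cenpf and Anln were not analysed here. For a gene with more than 1 probe set, the brightest by the mean over the 12 arrays stood for it. Ccnb2, Rrm1 and Rrm2 had 2 probe sets each, and the others 1.

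RNA came from epididymal white fat of male rats of the Sprague-Dawley strain, and each rat had 1 array of its own (Affymetrix Rat Gene 1.0 ST). Fed rats, rats fasted to phase 2 of a long fast (P2, in which the body lives mainly on fat) and rats fasted to phase 3 (P3, in which protein breakdown rises) made up the groups, with 4 rats in each. The rats carried no transgene or drug treatment that the labels name, and ages and lengths of the fast are not given in the sources used here. The level of a gene is the deposited log2 value of its probe set, and a difference of 1 is a 2-fold change.

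A cell that divides first copies its DNA in S phase and then separates the copies in mitosis. Cyclins switch on the cyclin-dependent kinases that drive each step, kinetochores tie chromosomes to the spindle, and ubiquitin ligases end mitosis by marking cyclins for destruction. Most of these genes are transcribed only in cycling cells. In fat, mature adipocytes are held not to divide, and the cells known to do so are mainly progenitors, endothelial cells and macrophages.

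Markers of the labelled tissue were bright. The mean over 9 adipocyte markers lay between 11.66 and 11.74 in fed rats, and that over 8 hepatocyte markers between 4.74 and 4.83, with 6 of the 8 near background. This was checked because the extraction protocol speaks of liver. Medians over named genes lay between 6.79 and 7.0 on the 12 arrays. They were lower by 0.16 in P3 than in fed rats, and centring the arrays on them moves every P3 minus fed difference up by that amount. With such centring the split of all calls went from 3066 higher and 3523 lower to 6115 and 2670 in P3 against fed, from 1401 and 2248 to 2029 and 1796 in P2 against fed, and from 1853 and 2193 to 3115 and 1683 in P3 against P2.

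Mitosis and S-phase genes were lower in fasted fat. In P2, 38 of the 40 measured genes fell and none rose, where 15.5% of all genes tested fell, 9.66% rose and 25.2% did either (limma, Benjamini-Hochberg adjusted p below 0.05 over all genes). The median difference was -1.20, against 0.01 over all genes, and 28 genes fell at least 2-fold. In P3, 38 of 40 fell, where 24.3% of all genes did, and 1 rose, where 21.1% did (45.4% for either direction). The median was -1.42 against 0.05 over all genes, and 32 fell at least 2-fold. These comparisons share the fed rats and are therefore not independent. In a whole fat pad, fewer dividing cells and less RNA of these genes per cell cannot be told apart.

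**Figure D1:**
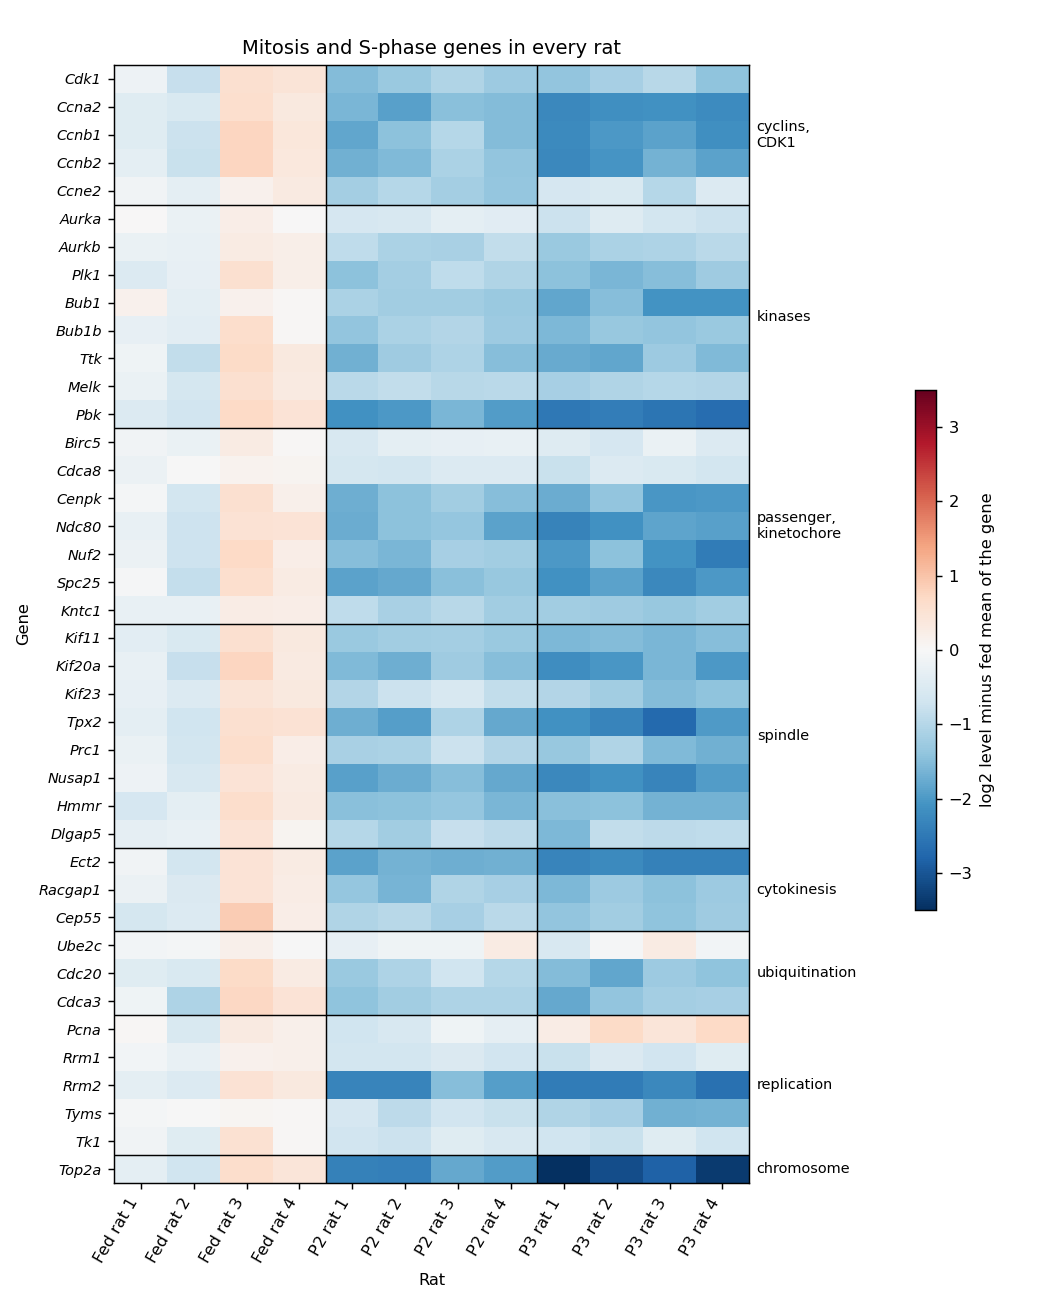
Log2 level of each of the 40 measured genes (rows, grouped by role) in each of the 12 rats (columns), minus the mean of the gene over the fed rats, with blue for lower and red for higher. Nearly all rows turn from pale or red in fed rats to blue in P2 and P3, whereas Ube2c stays pale and Pcna is red in P3.

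All P2 rats lay below all fed rats for 37 members, where 18.4% of all genes had that order, and above them for none, where 12.6% did. All P3 rats lay below all fed rats for 37 members, where 22.7% of all genes had that order, and above them for none, where 19.2% did. The levels in fasted rats were low. As a rough guide to background, the 53 olfactory receptor genes, taken as mostly silent in fat, had a 95th percentile of 5.54 in fed, 5.64 in P2 and 5.90 in P3 rats. In fed rats 6 of the 40 genes had a mean under it, in P2 29 and in P3 34. Probe sets differ in their brightness, so this sets no exact limit. Fold changes of genes that end near background are given as measured and may be too small.

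Top2a, which encodes the topoisomerase that untangles DNA before chromosomes separate, had the largest difference of the set. Its levels in fed rats 1 to 4 were 8.11, 7.76, 9.08 and 8.89, in P2 rats 6.10, 6.08, 6.68 and 6.50, and in P3 rats 4.57, 5.37, 5.63 and 5.11. The 3 groups did not overlap. The difference from fed was -2.12 ± 0.279 (SE) in P2, a 4.35-fold fall (adjusted p = 9.05e-05), and -3.29 ± 0.279 in P3, a 9.79-fold fall (adjusted p = 3.26e-07).

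Promoters of the set are shown because its members moved together and because many cell cycle promoters are known to carry a short element, TTTGAA, called the cell cycle genes homology region, next to CCAAT boxes that bind NF-Y. The windows reach from 250 bases before to 50 after the gene's start in RefSeq of build GRCr8, and 32 of the 40 measured genes had 1. Those printed are of Top2a (chr10:84473044-84473343 on the minus strand), of Ccnb2 and Cdk1, which encode a mitotic cyclin and its kinase (chr8:79981609-79981908 on the minus strand and chr20:19265043-19265342 on the plus strand), and of Pcna (chr3:139955771-139956070 on the minus strand). Pcna was lower in P2 without passing (-0.44, limma adjusted p = 0.0839) and was called higher in P3 (0.51). Capitals mark every match to TTTGAA or CCAAT, or to the E2F-type motifs TTTGGCGC and TTTCCCGC, on either strand, so that TTCAAA and ATTGG are the same elements read from the other strand.
Top2a: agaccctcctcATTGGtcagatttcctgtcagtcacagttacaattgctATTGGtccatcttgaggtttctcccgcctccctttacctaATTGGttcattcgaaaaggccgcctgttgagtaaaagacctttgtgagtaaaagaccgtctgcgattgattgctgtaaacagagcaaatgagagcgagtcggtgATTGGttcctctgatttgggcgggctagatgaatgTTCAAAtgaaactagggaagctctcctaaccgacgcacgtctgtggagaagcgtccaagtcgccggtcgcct
Ccnb2: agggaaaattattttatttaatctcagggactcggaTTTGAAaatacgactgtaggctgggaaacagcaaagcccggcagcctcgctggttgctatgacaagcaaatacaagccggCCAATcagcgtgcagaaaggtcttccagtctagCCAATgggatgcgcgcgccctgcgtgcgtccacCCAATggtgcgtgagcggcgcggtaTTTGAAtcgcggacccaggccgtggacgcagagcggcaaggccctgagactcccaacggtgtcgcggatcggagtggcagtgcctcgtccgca
Cdk1: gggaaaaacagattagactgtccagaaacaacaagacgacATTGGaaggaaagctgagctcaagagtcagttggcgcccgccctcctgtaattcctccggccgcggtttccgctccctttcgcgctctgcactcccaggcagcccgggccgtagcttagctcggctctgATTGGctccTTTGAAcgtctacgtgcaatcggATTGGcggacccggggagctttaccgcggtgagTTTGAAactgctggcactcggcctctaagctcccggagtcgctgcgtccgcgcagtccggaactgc
Pcna: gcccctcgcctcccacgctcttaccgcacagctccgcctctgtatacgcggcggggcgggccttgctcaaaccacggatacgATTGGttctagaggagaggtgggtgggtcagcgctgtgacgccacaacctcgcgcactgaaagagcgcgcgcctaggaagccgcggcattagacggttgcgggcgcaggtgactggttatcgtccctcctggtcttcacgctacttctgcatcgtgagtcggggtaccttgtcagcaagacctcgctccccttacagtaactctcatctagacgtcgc

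TTTGAA was present in 19 of the 32 promoters, or 59.4%, against 15.2% of the 11968 promoters of genes tested and 18.1% of all 27457 promoters, each gene taken at its first listed start. CCAAT was present in 23, or 71.9%, against 38.3% and 37.7%. Together they occurred in 15 promoters, or 46.9%, against 6.3% and 7.25%. None of the 4 promoters of the replication genes Pcna, Rrm1, Tyms and Tk1 held TTTGAA, whereas 19 of the 28 others did. Rrm2, the replication gene that fell most, had no promoter window. With 4 promoters, none with the element cannot be told apart from the 15.2% of promoters of genes tested. Whether the element goes with the size of the fall was not tested. Of the 23 matches to TTTGAA, 20 began in the stretch from 100 bases before the start to 50 after it. Where matches lie in other promoters was not counted, so this place cannot be called particular to the set. TTTGGCGC was found in 1 promoter, that of Tyms (0.735% of promoters of genes tested and 0.521% of all), and TTTCCCGC in none (1.55% and 1.03%). Other forms of E2F-type motifs were not searched for and are not marked, so these counts do not show how many promoters hold one. These are matches of letters in a window and do not show that a factor binds there.

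Among the cyclins and their kinase all 5 genes fell in P2, with a median of -1.43, and all 5 in P3, with a median of -1.95. Ccnb1, the cyclin that brings cells into mitosis, was at 6.60, 6.27, 7.77 and 7.43 in fed rats 1 to 4, at 5.20, 5.59, 6.03 and 5.49 in P2 and at 4.80, 5.02, 5.15 and 4.88 in P3. Every fasted rat lay below every fed rat, and every P3 rat below every P2 rat. The difference was -1.44 ± 0.269 in P2 (adjusted p = 0.00131) and -2.05 ± 0.269 in P3 (adjusted p = 2.11e-05). Ccna2, the cyclin of S phase and early mitosis, was at 6.45, 6.34, 7.46 and 7.21 in fed rats, at 5.26, 4.97, 5.40 and 5.36 in P2 and at 4.62, 4.71, 4.76 and 4.67 in P3. Its groups did not overlap either, and its differences from fed were -1.62 ± 0.204 and -2.18 ± 0.204 (adjusted p = 6.27e-05 and 8.65e-07).

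Cdk1, the kinase that these cyclins activate, was at 5.94, 5.32, 6.70 and 6.58 in fed rats, at 4.62, 4.83, 5.09 and 4.86 in P2 and at 4.74, 4.96, 5.17 and 4.71 in P3. Fed rat 2 was the lowest fed rat and still lay above all fasted rats, while P2 and P3 rats overlapped. It fell by 1.28 ± 0.238 in P2 (adjusted p = 0.00125) and fell by 1.24 ± 0.238 in P3 (adjusted p = 0.000638). Ccne2, an E-type cyclin that acts at the entry into S phase, had another order. It was at 6.07, 5.83, 6.33 and 6.49 in fed rats, at 4.99, 5.17, 4.98 and 4.82 in P2 and at 5.58, 5.64, 5.18 and 5.70 in P3. All P3 rats lay between the P2 and the fed rats, with P3 rat 3 only just above P2 rat 2. It fell by 1.19 ± 0.144 in P2 (adjusted p = 4.57e-05) and fell by 0.66 ± 0.144 in P3 (adjusted p = 0.00182).

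All 8 kinases of mitosis and its checkpoint fell in P2, with a median of -1.17, and all 8 in P3, with a median of -1.42. Bub1, a kinase of the checkpoint that delays separation until all chromosomes are attached, was at 7.18, 6.68, 7.19 and 7.06 in fed rats, at 5.92, 5.80, 5.82 and 5.73 in P2 and at 5.22, 5.53, 4.93 and 4.93 in P3. The 3 groups stood apart, and the differences from fed were -1.21 ± 0.140 in P2 (adjusted p = 3.1e-05) and -1.87 ± 0.140 in P3 (adjusted p = 8.95e-08). Pbk, a kinase of mitotic cells, was at 6.29, 6.09, 7.46 and 7.25 in fed rats, at 4.65, 4.77, 5.17 and 4.82 in P2 and at 4.28, 4.36, 4.21 and 4.11 in P3. It had the largest differences of the kinases, -1.92 ± 0.247 and -2.53 ± 0.247 (adjusted p = 7.41e-05 and 1.3e-06). Of the other kinases, the centrosomal Aurka had the smallest difference in P2 (-0.47), and the rest ran from -0.93 for Melk to -1.37 for Ttk, with the passenger complex kinase Aurkb at -1.0, Plk1 at -1.15 and Bub1b at -1.19. In P3 these 6 ran from -0.65 for Aurka to -1.59 for Ttk.

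Of the passenger complex and kinetochore, 7 genes were measured, and all 7 fell in P2 and in P3, with medians of -1.37 and -1.79. Spc25 belongs with Ndc80 and Nuf2 to the complex that grips microtubules. It was at 6.22, 5.43, 6.85 and 6.54 in fed rats, at 4.40, 4.47, 4.81 and 4.94 in P2 and at 4.13, 4.40, 4.01 and 4.24 in P3. Fasted and fed rats did not overlap, and the differences were -1.61 ± 0.233 and -2.07 ± 0.233 (adjusted p = 0.000194 and 5.14e-06). The other measured subunits of that complex were at -1.60 and -2.06 (Ndc80) and at -1.37 and -2.0 (Nuf2). Kntc1, which recruits checkpoint proteins to the kinetochore, was at 5.22, 5.20, 5.74 and 5.69 in fed rats, at 4.58, 4.34, 4.51 and 4.26 in P2 and at 4.25, 4.22, 4.15 and 4.26 in P3. Its differences were -1.04 ± 0.125 and -1.25 ± 0.125 (adjusted p = 4.34e-05 and 1.75e-06), and those of the centromere gene Cenpk were -1.46 and -1.79.

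The passenger complex genes changed least in that group. Cdca8, which encodes borealin, fell by 0.55 ± 0.0915 in P2 and fell by 0.61 ± 0.0915 in P3. Birc5, which encodes survivin, fell by 0.36 ± 0.117 in P2 (adjusted p = 0.0384, the alternatives giving 0.0135 to 0.126) and fell by 0.43 ± 0.117 in P3 (adjusted p = 0.00747). Its P2 call ended without fed rat 3 or 4 (adjusted p = 0.126 and 0.0922), without P2 rat 1, 2 or 3 (0.114, 0.0708 and 0.0569) and with arrays centred on their medians (0.0894). Its P3 call ended with centred arrays (0.057).

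All 8 genes of spindle motors and microtubule proteins fell in P2, with a median of -1.36, and all 8 in P3, with a median of -1.55. Nusap1, which bundles spindle microtubules near chromosomes, was at 6.36, 5.98, 7.04 and 6.84 in fed rats, at 4.66, 4.80, 5.05 and 4.75 in P2 and at 4.29, 4.43, 4.23 and 4.60 in P3. Tpx2, which activates Aurora A on the spindle, was at 6.72, 6.36, 7.61 and 7.57 in fed rats, at 5.35, 5.12, 5.99 and 5.27 in P2 and at 4.93, 4.74, 4.35 and 5.07 in P3. For both of them the P3 rats lay below all P2 rats and these below all fed rats. Nusap1 differed from fed by -1.74 ± 0.186 in P2 (adjusted p = 1.56e-05) and by -2.17 ± 0.186 in P3 (adjusted p = 3.62e-07). Tpx2 differed by -1.63 ± 0.270 in P2 (adjusted p = 0.000526) and by -2.29 ± 0.270 in P3 (adjusted p = 7.8e-06). Hmmr, a microtubule protein that also binds hyaluronan, was at 5.38, 5.63, 6.57 and 6.28 in fed rats, at 4.51, 4.53, 4.60 and 4.37 in P2 and at 4.49, 4.52, 4.30 and 4.31 in P3, so that the fasted groups overlapped. It fell by 1.46 ± 0.198 in P2 (adjusted p = 0.000112) and fell by 1.56 ± 0.198 in P3 (adjusted p = 1.58e-05). The kinesins Kif11, Kif20a and Kif23 were at -1.26, -1.5 and -0.80 in P2 and at -1.55, -1.95 and -1.29 in P3. Prc1, which crosslinks the microtubules of the spindle midzone, was at -1.01 and -1.40, and Dlgap5, which stabilises spindle fibres, at -0.98 and -1.06.

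In cytokinesis, the final cut between daughter cells, all 3 measured genes fell in P2 and in P3. Ect2, which switches on RhoA at the cleavage furrow, was at 6.51, 5.98, 7.10 and 6.92 in fed rats, at 4.77, 4.97, 4.93 and 4.94 in P2 and at 4.33, 4.41, 4.26 and 4.26 in P3. Its groups stood far apart, and its differences were -1.72 ± 0.179 and -2.31 ± 0.179 (adjusted p = 1.25e-05 and 1.3e-07). Racgap1, its partner at the spindle midzone, was at 6.61, 6.31, 7.29 and 7.08 in fed rats, at 5.46, 5.19, 5.78 and 5.66 in P2 and at 5.26, 5.54, 5.38 and 5.56 in P3. The fasted groups overlapped, and the differences were -1.3 ± 0.185 and -1.38 ± 0.185 (adjusted p = 0.000169 and 2.55e-05). Cep55, which acts at the last bridge between the cells, was at -1.04 and -1.32.

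Of the 3 genes of mitotic ubiquitination 2 fell in each comparison. Cdc20, which activates the anaphase-promoting complex, was at 6.52, 6.42, 7.60 and 7.23 in fed rats, at 5.63, 5.85, 6.23 and 5.95 in P2 and at 5.41, 5.13, 5.67 and 5.53 in P3. Its differences were -1.03 ± 0.227 and -1.51 ± 0.227 (adjusted p = 0.00413 and 7.6e-05). Cdca3, a trigger of entry into mitosis, was at 4.80, 3.88, 5.67 and 5.43 in fed rats, at 3.55, 3.73, 3.88 and 3.87 in P2 and at 3.15, 3.57, 3.75 and 3.80 in P3. Fed rat 2 was close to the fasted rats, and the differences were -1.19 ± 0.291 and -1.38 ± 0.291 (adjusted p = 0.0079 and 0.00134).

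Ube2c, the ubiquitin-conjugating enzyme that works with that complex, passed in no comparison. It was at 7.12, 7.14, 7.38 and 7.2 in fed rats, at 6.93, 7.06, 7.05 and 7.49 in P2 and at 6.65, 7.16, 7.51 and 7.12 in P3. All groups overlapped. The difference was -0.08 in P2 (95% confidence interval -0.42 to 0.26, adjusted p = 0.783) and -0.10 in P3 (-0.44 to 0.24, adjusted p = 0.629), so that a fall of 2-fold lay outside the interval in both.

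**Figure D2:**
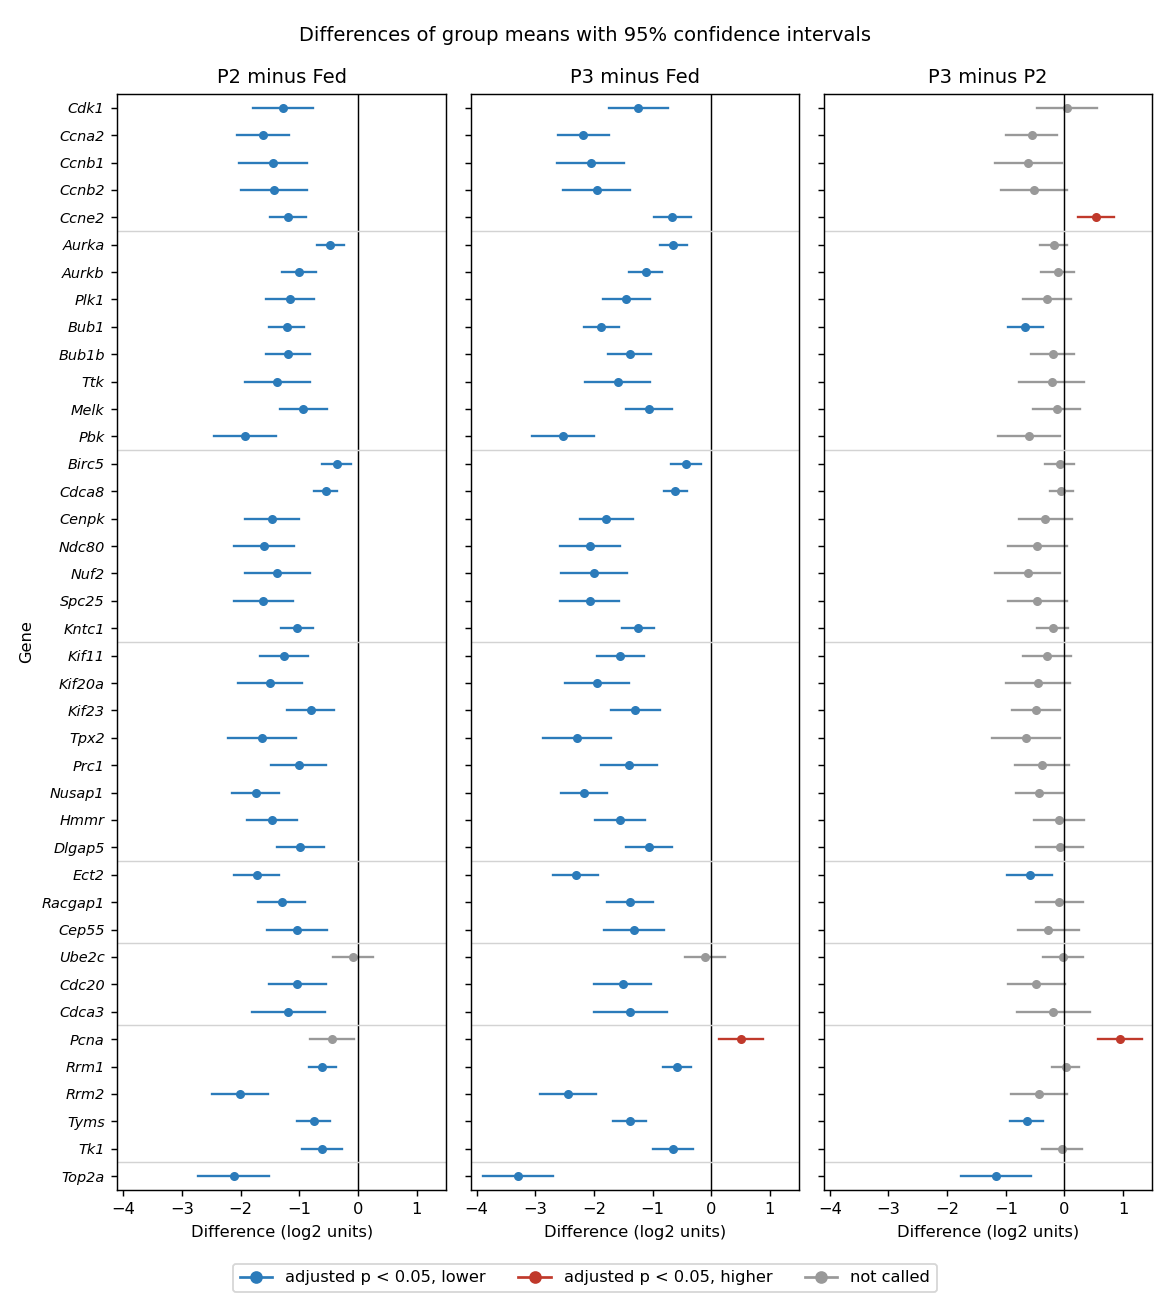
Difference of group means in log2 units for each measured gene (points) with its 95% confidence interval (lines), for P2 minus fed, P3 minus fed and P3 minus P2. Blue and red mark genes called lower and higher at an adjusted p below 0.05 and grey those not called. Against fed rats nearly every gene lies left of 0, while between P3 and P2 most intervals are near 0 and Pcna and Ccne2 lie to the right.

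The genes of DNA replication and nucleotide supply moved less alike. In P2 4 of 5 fell, with a median of -0.61, and in P3 4 fell and 1 rose, with a median of -0.65. Rrm2, the subunit of ribonucleotide reductase made in S phase, was at 7.28, 7.14, 8.14 and 7.97 in fed rats, at 5.33, 5.31, 6.14 and 5.71 in P2 and at 5.18, 5.19, 5.37 and 5.02 in P3. Its differences were -2.01 ± 0.222 and -2.44 ± 0.222, falls of 4.03-fold and 5.44-fold (adjusted p = 2.01e-05 and 6.38e-07). Rrm1, the partner subunit, which is known to be steadier through the cell cycle, was at -0.61 ± 0.110 and -0.59 ± 0.110 (adjusted p = 0.000995 and 0.000486). Tk1, a thymidine kinase, differed by -0.61 and -0.65 and was the only called faller with rats that overlapped, since fed rat 2 (5.70) lay at the level of P2 rat 3 (5.70) and P3 rat 3 (5.70).

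Tyms, which makes thymidylate for DNA, was at 9.09, 9.14, 9.22 and 9.19 in fed rats, at 8.56, 8.24, 8.48 and 8.37 in P2 and at 8.10, 7.99, 7.47 and 7.5 in P3. The groups did not overlap, and the fed rats lay close together. It fell by 0.75 ± 0.133 in P2 (adjusted p = 0.000847) and fell by 1.39 ± 0.133 in P3 (adjusted p = 1.02e-06).

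Pcna, the sliding clamp that holds DNA polymerase on its template and also serves DNA repair, was the only member that rose against fed rats. It was at 9.03, 8.45, 9.31 and 9.18 in fed rats, at 8.30, 8.42, 8.83 and 8.67 in P2 and at 9.25, 9.67, 9.42 and 9.68 in P3. The P3 rats lay above all P2 rats, but P3 rat 1 lay below fed rat 3. The difference in P2 was -0.44 ± 0.173, which did not pass (adjusted p = 0.0839, the alternatives giving 0.00705 to 0.231), and it passed as lower without fed rat 2 (-0.62, adjusted p = 0.00705) and with array weights (-0.48, adjusted p = 0.0305). In P3 it rose by 0.51 ± 0.173 (adjusted p = 0.0265, the alternatives giving 0.00414 to 0.0781). That call ended without fed rat 2 (0.33, adjusted p = 0.0781), P3 rat 2 (0.45, 0.0632) or P3 rat 4 (0.45, 0.0736).

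**Figure D3:**
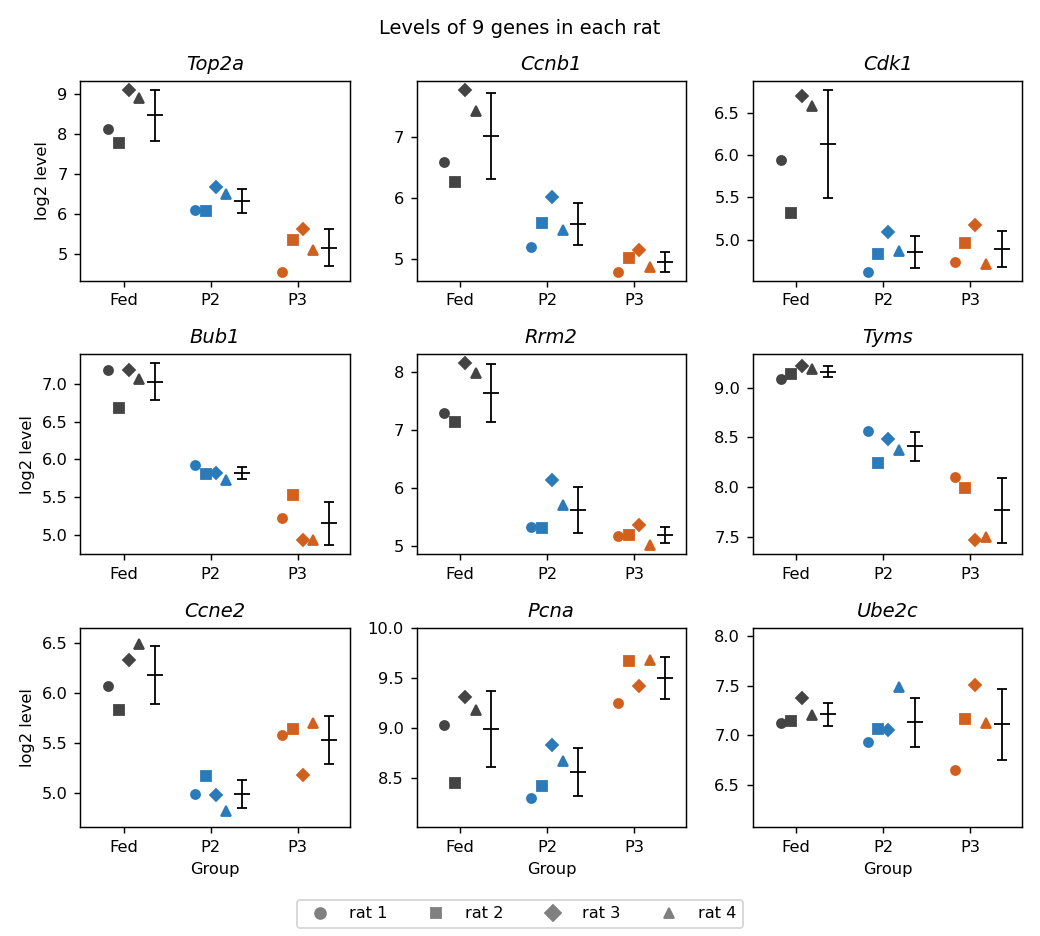
Log2 levels of 9 genes in each rat, by group, with a marker shape for each rat number and the group mean with its SD (n = 4) in black; rats of different groups that share a number are different animals. Top2a, Bub1 and Tyms step down from fed to P2 to P3, Ccne2 and Pcna are higher in P3 than in P2, and Ube2c overlaps in all groups.

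Between P3 and P2 most members did not pass the test. In the fit of all 12 arrays 4 of 40 fell, where 15.1% of all genes did, and 2 rose, where 12.8% did. The median difference was -0.29 against 0.03 over all genes. Those that fell were Top2a (-1.17 ± 0.279, adjusted p = 0.00601), Bub1 (-0.67 ± 0.140, 0.00261), Tyms (-0.64 ± 0.133, 0.00224) and Ect2 (-0.59 ± 0.179, 0.0235). The call of Ect2 ended without P2 rat 2, 3 or 4 or P3 rat 4, at adjusted p of 0.0558, 0.0519, 0.0533 and 0.0573, and ranged from 0.000592 to 0.0573 over the alternatives. Those that rose were Pcna by 0.95 ± 0.173, which was 1.93-fold (0.000936), and Ccne2 by 0.54 ± 0.144, which was 1.45-fold (0.0123). Their calls held in every alternative in which they were tested, but the removal of dim genes took Ccne2 out of the test.

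The rats of P3 lay below all rats of P2 for 14 members, where 14% of all genes did, and above them for Pcna and Ccne2, where 12.4% did. Rrm1, well above background in every group, differed by 0.02 (95% confidence interval -0.22 to 0.25). Cdk1 differed by 0.04 (-0.47 to 0.56), but both of its means lay under the olfactory 95th percentile, so a change in its level may have gone unmeasured. The P2 and P3 means of Ccne2 (4.99 and 5.53) and of Ect2 (4.9 and 4.31) also lay under that percentile. It was itself higher in P3 (5.9) than in P2 (5.64). The calls of Ccne2 and Ect2 between P3 and P2 thus rest on levels near background.

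The count of calls between P3 and P2 depended on whether fed rats shared in the estimate of the spread. Fitted on P2 and P3 rats only, 18 of 40 members fell, where 13.1% of all genes did, and 2 rose, where 10.4% did. The 14 additional calls were the cyclins Ccna2 (-0.56, adjusted p = 0.0032), Ccnb1 (-0.62, 0.017) and Ccnb2 (-0.52, 0.029), and Pbk, Ndc80, Nuf2, Spc25, Kif11, Kif20a, Kif23, Tpx2, Nusap1, Cep55 and Cdc20. With all groups but without fed rat 2, 11 fell and 2 rose (32.5% of members), where 27.4% of all genes did either. Without fed rat 3, 7 fell and 2 rose (22.5%), where 26.6% of all genes did either. The median SD over the members was 0.503 in fed rats, 0.183 in P2 and 0.167 in P3, against 0.112, 0.126 and 0.167 over all genes. Each printed SE rests on a spread shared by all groups, so those against fed may be too small. Fitted on only the 2 groups compared, 38 members were called in P2 and 39 in P3 against fed, where 30% and 42.6% of all genes were.

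The wide spread among fed rats had the same order in nearly every member. Fed rat 3 was the highest fed rat for 38 of the 40 genes and fed rat 2 the lowest for 33, whereas these rats were the highest and lowest for 23.4% and 24.8% of all genes. Relative to the fed mean, the average over the members was -0.24, -0.51, 0.49 and 0.26 in fed rats 1 to 4. It lay between -1.31 and -1.01 in P2 and between -1.57 and -1.40 in P3 rats, so the lowest fed rat stayed above the highest fasted rat. The SD was largest in the fed group for 37 members. In P2, rat 3 was the highest for 28 members, where it was the highest for 28.8% of all genes. In P3 no rat was the highest for more than 14, the count of rat 3, which was the highest for 35.9% of all genes.

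**Figure D4:**
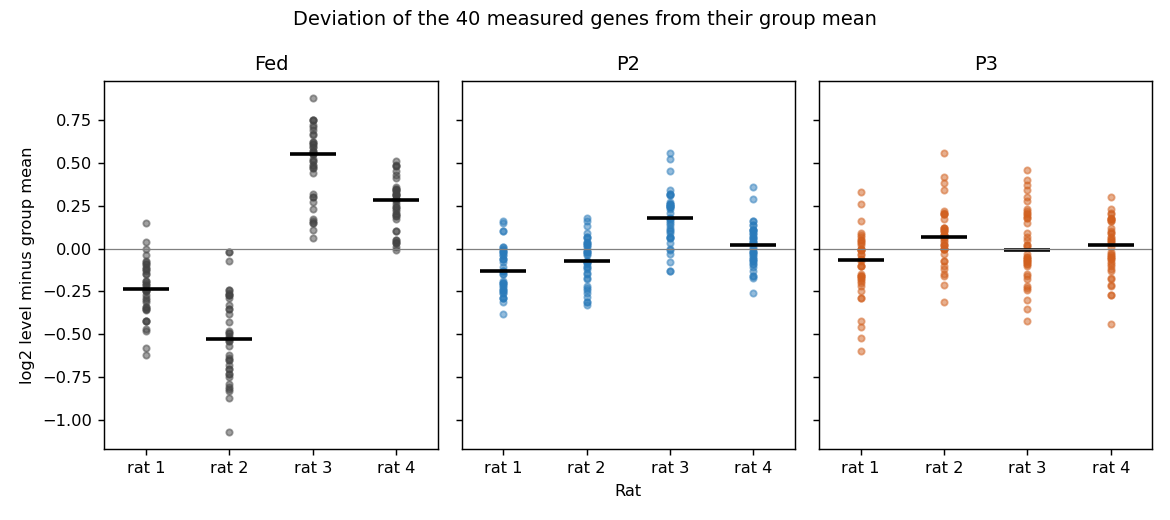
Log2 level minus the mean of its own group for each of the 40 measured genes (points) in each rat, with the median over the genes as a bar. In fed rats the points of rat 3 lie above 0 and those of rat 2 below it, while the rats of P2 and P3 differ less.

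Other genes of the cell cycle were taken from 4 lists, and their counts stand beside 15.5% of all genes lower and 9.66% higher in P2, 24.3% and 21.1% in P3, and 15.1% and 12.8% in P3 against P2. Of 43 measured genes with other mitotic roles 29 fell and 1 rose in P2, with a median of -0.62, and 30 fell and none rose in P3, with a median of -0.57. Kif20b, a kinesin of cytokinesis, was at -1.06 ± 0.133 in P2 and -1.08 ± 0.133 in P3. Kif4a, a chromosome kinesin, was at -1.53 ± 0.227 and -2.0 ± 0.227, and Plk4, the kinase of centriole duplication, at -1.47 ± 0.219 and -1.59 ± 0.219. Cdc25c, a phosphatase that activates CDK1, was at -0.85 ± 0.132 and -1.03 ± 0.132. Between P3 and P2, 1 gene of this list fell, Cdc25b (-0.76 ± 0.122), another such phosphatase, and 2 rose. These were Fbxo5 (0.73 ± 0.201), an inhibitor of the anaphase-promoting complex, and the checkpoint gene Bub3 (0.24 ± 0.0822, adjusted p = 0.0442), whose call ended in most alternatives. Of 34 genes of S phase and DNA repair 18 fell and none rose in P2, and 14 fell and 2 rose in P3. Uhrf1, which maintains DNA methylation behind the fork, was at -1.34 ± 0.181 and -1.60 ± 0.181, and the histone chaperone Asf1b at -1.21 ± 0.178 and -1.29 ± 0.178. Lmnb1, which encodes a protein of the nuclear lamina, was at -1.08 ± 0.165 and -1.34 ± 0.165. Between P3 and P2, 1 gene of this list fell and 3 rose (Usp1, Pole and Pold3), both below the share of all genes. The call of the polymerase gene Pole (0.36) ended without P2 rat 3 or 4. Usp1, a deubiquitinase that acts on PCNA, rose by 0.58 ± 0.112 (adjusted p = 0.0015).

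Among 26 G1 regulators and transcription factors of the cycle, 9 fell and 4 rose in P2, and 11 fell and 9 rose in P3. Ccnd1, the D-type cyclin that responds to growth factors, was at -1.12 ± 0.131 in P2 and -2.74 ± 0.131 in P3 against fed, and at -1.62 ± 0.131 in P3 against P2 (adjusted p = 1.08e-06). Cdk6, a kinase that D-type cyclins activate, was at -0.68 ± 0.155 and -1.85 ± 0.155. Ccnd2, another D-type cyclin, was at -1.47 ± 0.130 in P3 and did not pass in P2 (-0.29 ± 0.130, adjusted p = 0.124). Ccne1, the other E-type cyclin, was at -1.24 ± 0.184 in each and, unlike Ccne2, was not higher in P3 than in P2 (adjusted p = 0.997). Whether the 2 E-type cyclins differed in that change was not tested. Cdkn1b, which encodes the cyclin-dependent kinase inhibitor p27, rose by 0.66 ± 0.111 in P2 and by 1.08 ± 0.111 in P3 (adjusted p = 0.000584 and 2.12e-06). Of 12 subunits and activators of the anaphase-promoting complex, 5 fell and none rose in P2, and 9 fell and 1 rose in P3, with Anapc5 at -0.47 and -0.95 and Cdc27 at -0.77 in both. Anapc2 was at -0.51 and -0.48, and in P3 Anapc1 was at -0.86 and Cdc26 at -1.03.

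Markers of cell types that a fat pad holds were measured beside these genes, and their counts stand beside the same shares of all genes. Of 12 markers of fibroblasts and progenitors, 5 fell and 1 rose in P2 and 9 fell and 2 rose in P3. Their mean lay between 9.91 and 10.06 in fed, 9.26 and 9.59 in P2 and 8.26 and 8.66 in P3 rats, with Ly6al near background in every group. Thy1 was at -1.59 and -2.38, Cd34 at -1.28 and -2.02 and Pdgfra at 0.10 and -0.40. Those that rose were Pdgfrb, at 0.76 and 0.71, and in P3 also Dcn, at 0.14 and 0.42. Of 15 macrophage markers 1 fell and 2 rose in P2 and 4 fell and 4 rose in P3, with means between 9.03 and 9.29, 9.11 and 9.40, and 9.05 and 9.58, and Marco near background, and the P3 counts were near the shares of all genes. Of 9 endothelial markers 7 rose in P2 and 5 in P3, and none fell, with means between 9.16 and 9.29, 9.52 and 9.82, and 9.55 and 9.74.

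Of 8 smooth muscle markers 8 rose in P2 and 7 in P3, with medians of 1.02 and 1.07 and means between 8.37 and 9.0, 9.41 and 10.18, and 9.28 and 9.91. Of 6 mesothelial markers 5 fell in P2 and 4 in P3, with means between 8.39 and 8.68, 7.75 and 8.09, and 7.23 and 7.71. Of 9 adipocyte markers 1 fell (Lep, -4.12) and 1 rose in P2 and 8 fell in P3. Their means lay between 11.66 and 11.74, 11.21 and 11.40, and 9.84 and 10.49. Of 11 T and NK cell markers none passed in P2 and 3 fell in P3, and Cd3d, Cd3e, Cd2, Cd5 and Cd28 were near background in all groups. Germ cells of the testis divide often and lie close to this pad. Of 14 markers of germ cells and epididymis 1 rose in P2 and 2 in P3, and none fell. The mean over the 14 lay between 3.93 and 4.25 in all rats, and 12 were near background in every group. The others were Prm1, at means of 6.56, 6.61 and 6.72 in fed, P2 and P3 rats, and Prm2, at 5.64, 5.57 and 6.12. Whether germ cells gave any of the signal of the mitotic genes was not tested. In fed rats 1 to 4 the mean over smooth muscle markers was 8.84, 9.0, 8.37 and 8.48, the reverse of the order of the mitotic genes. This list was picked from all the marker lists after their values were seen, and 4 rats can take such an order by chance. The mean over progenitor markers was 10.06, 10.03, 10.04 and 9.91 and that over macrophage markers 9.29, 9.24, 9.27 and 9.03 in these rats, in other orders. What part the makeup of the pad had in the fall of the mitotic genes, or in their spread among fed rats, was not tested.

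**Figure D5:**
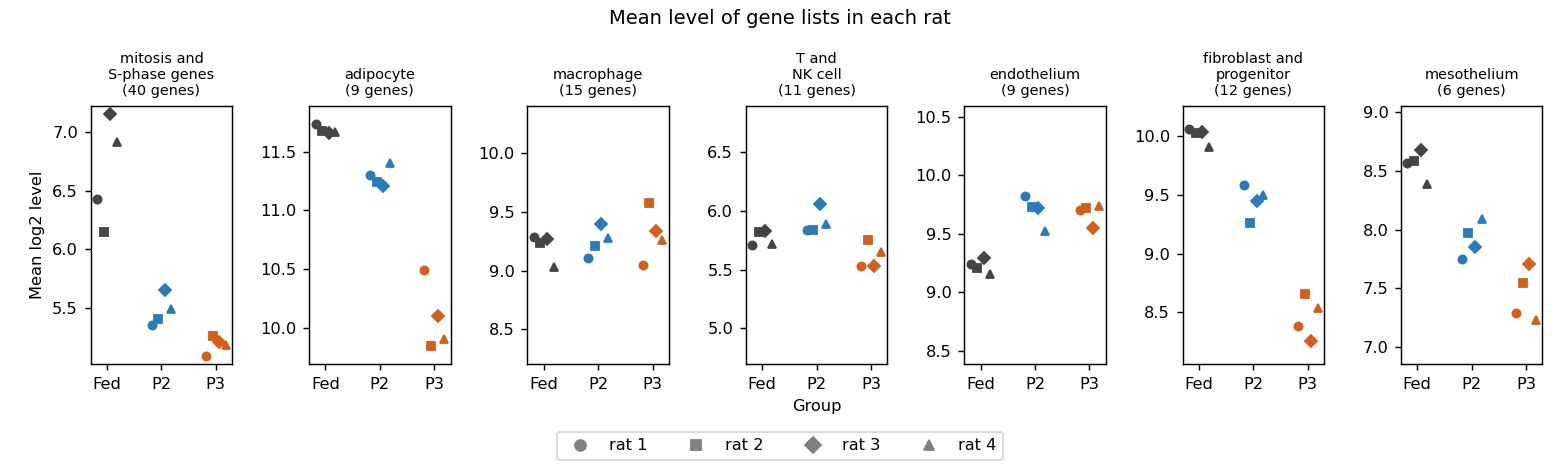
Mean log2 level in each rat over the 40 mitosis and S-phase genes and over 6 lists of cell type markers, by group, with a marker shape for each rat number and every axis spanning the same range. The mitosis and S-phase genes and the adipocyte, progenitor and mesothelial lists are lower in P2 and lower again in P3. Of the adipocyte markers, only Lep was called lower in P2 (-4.12). The macrophage list overlaps in all groups and the endothelial list is higher in fasted rats.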

How the data were processed

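The authors deposited 1 log2 level for each probe set and array, with RMA, GCOS and Affymetrix Expression Console 1.1 named in the submitters' processing notes. The RMA settings are not given in the sources used here. Neither labels nor headers name a batch, and precision is limited by the number of arrays.

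Of 29215 probe sets, 15310 named 1 gene, 323 several and 13582 none, and only the first kind was used. All 12 arrays entered 1 model with a mean per group (lmFit and eBayes, limma 3.58.1, R 4.3.3), and p-values were adjusted by Benjamini-Hochberg over 14506 genes. Summaries used Python 3.11.15, pandas 2.3.3 and matplotlib 3.10.9, and the fit was tested on simulated data. The members and lists were chosen with earlier results of these data known, so no test over a list was made. Values in every rat are given for up to 2 members per role group with the smallest adjusted p against fed, those called between P3 and P2, those that rose, those called in no comparison, and Top2a, Cdk1, Ccnb1 and Pcna; of the other lists, up to 3 genes with the smallest adjusted p per comparison. The markers named and the promoters printed were chosen after their values were seen. Alternatives covered probe sets, scaling, dim genes, the fit and each rat left out.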

Additional observations from a re-analysis of the deposited data

Results flagged for a closer look

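Of the 120 groups of 4 values tested, 2 held a rat that stood apart from the others by Dixon's criterion, which chance meets in about 1 of 20 groups. Dlgap5 was at 5.48 in P3 rat 1 and between 6.15 and 6.20 in the other P3 rats. Melk was at 4.35 in P2 rat 2 and between 4.25 and 4.26 in the other P2 rats.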

How the results depend on the processing

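Leaving out 1 rat kept the count of members called between 37 and 39 in P2 against fed, where 19.6% to 28.5% of all genes were. In P3 against fed it lay between 38 and 39, where 40.7% to 45.9% were. In P3 against P2 it lay between 5 and 13 (12.5% to 32.5% of members), where 23.1% to 28.4% of all genes were. The last counts were thus near the share of all genes. Under all 21 alternatives no called difference of a member changed sign. The removal of dim genes, by the mean over all arrays, took most members out of the test. Members could pass it through their fed level alone, so their counts support nothing. Without the dimmest 40% of genes 8 members remained, of which 6 were called in P2 against fed (median -0.87), 7 in P3 against fed and 3 in P3 against P2, where 40.5%, 65% and 46.3% of all genes were. Without genes under the olfactory 95th percentile 19 remained, of which 17 were called in P2 and 18 in P3 against fed, where 38.3% and 62.5% of all genes were. Of the other cell cycle lists, 35 genes were called in P2 and 44 in P3 against fed with the first filter, and 40 and 50 with the second. The filters took genes out of these lists too. These counts are therefore not out of all their measured genes, and they do not show a share above that of all genes. In P3 against P2, 20 members (50%) were called in a fit of these groups only, where 23.5% of all genes were. With the replicate number as a block 10 members (25%) were called there, near the 27.5% of all genes. The counts against fed stayed at 38 and 39 with the block, where 24.4% and 45% of all genes were called. The numbers do not pair the rats, as the correlation of same-numbered rats ran from -0.155 to 0.188. Against the olfactory median, a threshold chosen after seeing the data, all 40 members lay above background in P2 and 40 in P3, in place of 11 and 6, so how many were detectable depends on that threshold.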
